A study of Mus musculus with 7 samples.

Results

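The genes described here are the nuclear genes for subunits of respiratory chain complexes I to IV. They are 59 genes taken by name from the 56980 genes of the table, namely 34 of complex I, 4 of complex II, 9 of complex III and 12 of complex IV. All 59 were found under 1 Ensembl identifier each. All 59 also passed the filter on low values, and each had at least 1.91 FPKM (fragments counted on a gene relative to its length and to the fragments of the library) in every mouse. The names came from the subunit families and not from measured values, but the families were chosen with earlier results of these data known.

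The respiratory chain sits in the inner mitochondrial membrane and passes electrons from NADH and succinate to oxygen. Complexes I, III and IV pump protons while they do so, complex II does not, and ATP synthase uses the proton gradient to make ATP. Most subunits are encoded in the nucleus and imported, while a small core of complexes I, III and IV is encoded in mitochondrial DNA. Heart muscle is among the tissues richest in mitochondria, and several complex IV subunits have a muscle isoform there.

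Myocardial total RNA was sequenced from 7 wild-type male C57BL/6J mice, which were 8 weeks old on arrival and had 1 week to acclimatise. In 3 mice (MI) the left coronary artery was ligated, and the hearts were taken 4 days later. The 4 sham-operated mice had the same surgery without the ligature, and both groups carried no transgene or other treatment. The labels name only myocardial tissue, the study's text calls that of the MI mice ischemic, and each library stands for 1 mouse.

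Depth was about 19980000 to 23610000 fragments per library, and a member gene had between 107 and 38022 fragments in a mouse, with a median of 4468. MI replicate 2 stood apart from the other MI mice and close to the sham mice, so the counts of members and the medians of the complexes are given with and without it. Whether the ligation or the tissue taken differed in that mouse was not tested, and a mean over the 3 MI mice includes it as labelled. Mitochondrial genes took 26.5% to 27.4% of the fragments in the sham mice, 13.6% in MI replicate 1, 14.9% in MI replicate 3 and 28.2% in MI replicate 2. The defining cardiomyocyte genes were abundant in all 7 libraries, with Myh6 (the main adult heart myosin) at 3796 to 4086 FPKM in the sham mice and at 1908, 4001 and 2252 FPKM in MI replicates 1, 2 and 3.

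Promoter sequence is shown for 6 subunits, because nuclear respiratory genes are known to share sites for a small set of transcription factors. The RefSeq windows on GRCm38.p6, the same assembly as mm10, held an entry for 48 of the 59 genes. They run from 250 bases before to 50 bases after a transcription start. Each run below is on the gene's own strand, ends at or before the start and leaves out bases that any GENCODE M21 exon covers. Capitals mark a searched motif on either strand: GCGCATGC for NRF1, CCGGAAG for the ETS factors, ATGGCGG for YY1, AAGGTCA for the ERR receptors and GGGCGG for SP1.
Ndufa6 (complex I, chr15:82354323-82354541, minus strand): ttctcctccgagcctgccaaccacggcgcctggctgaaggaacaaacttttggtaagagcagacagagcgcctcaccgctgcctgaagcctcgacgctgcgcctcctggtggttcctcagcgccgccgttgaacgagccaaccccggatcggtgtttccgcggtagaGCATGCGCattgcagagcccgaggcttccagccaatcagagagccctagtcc
Ndufa11 (complex I, chr17:56717686-56717761, plus strand): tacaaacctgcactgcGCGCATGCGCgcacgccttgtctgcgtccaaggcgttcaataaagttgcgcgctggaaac
Uqcr11 (complex III, chr10:80406831-80407071, minus strand): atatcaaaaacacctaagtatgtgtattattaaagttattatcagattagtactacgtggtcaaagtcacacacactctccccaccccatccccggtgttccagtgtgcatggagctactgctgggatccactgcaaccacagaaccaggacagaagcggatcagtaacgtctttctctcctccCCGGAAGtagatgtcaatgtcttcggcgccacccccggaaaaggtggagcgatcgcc
Sdhb (complex II, chr4:140961021-140961202, plus strand): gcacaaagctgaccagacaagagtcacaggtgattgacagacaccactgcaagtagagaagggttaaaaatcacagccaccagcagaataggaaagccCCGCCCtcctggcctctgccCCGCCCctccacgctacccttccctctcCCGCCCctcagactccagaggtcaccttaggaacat
Cox7a1 (complex IV, chr7:30183921-30184143, plus strand): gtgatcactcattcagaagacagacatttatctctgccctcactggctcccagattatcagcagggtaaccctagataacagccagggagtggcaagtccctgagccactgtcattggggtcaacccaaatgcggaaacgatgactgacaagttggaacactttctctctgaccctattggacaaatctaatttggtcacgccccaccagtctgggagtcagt
Cox8b (complex IV, chr7:140900447-140900696, minus strand): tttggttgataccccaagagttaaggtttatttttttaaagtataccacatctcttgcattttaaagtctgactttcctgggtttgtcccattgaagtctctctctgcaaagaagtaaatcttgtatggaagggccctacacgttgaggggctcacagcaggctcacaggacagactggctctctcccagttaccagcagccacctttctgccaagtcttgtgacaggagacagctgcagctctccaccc

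The NRF1 letters stood in the windows of 6 of the 48 genes (12.5%), against 3.05% of all 27025 genes with a window. The 6 were Ndufa6, Ndufa8, Ndufa11, Sdhb, Uqcrc1 and Uqcr11, which belong to complexes I, II and III. For Sdhb and Uqcr11 the NRF1 letters lie in the window but outside the run printed above. In Ndufa11 the letters and their reverse complement overlap, so the capitals there hold both. The YY1 letters were in the windows of 8 genes (16.7% against 4.69% of all genes), all of them of complex I, and the ETS letters in those of 9 (18.8% against 9.93%). The SP1 letters were in the windows of 18 genes (37.5% against 38.2%) and the ERR letters in those of 4 (8.33% against 5.38%). None of the 5 motifs was found for 15 genes, among them Cox7a1 and Cox8b, both muscle isoforms of complex IV. These matches describe letters in a window and not bound sites. The 6 genes with the NRF1 letters had log2 differences of -0.71 to -0.35 between MI and sham mice, with a median of -0.53, and the 42 without them had a median of -0.52. With and without the letters the medians were -0.57 and -0.49 for YY1, -0.48 and -0.52 for ETS, -0.41 and -0.53 for ERR and -0.52 and -0.52 for SP1, and none of these was tested.

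All 59 subunit genes had a lower mean in the MI mice than in the sham mice. On the log2(FPKM + 1) scale the differences ran from -0.73 for Cox7a1 to -0.13 for Cox6c, with a median of -0.52, while the median of the 11431 genes tested was 0.21. None of the 59 passed an adjusted p of 0.05 in limma's test over all 7 mice, where the adjusted p of a member was 0.108 to 0.702. Over all genes the same test called 1 gene lower (0.00875% of those tested) and 2 genes higher (0.0175%). At an unadjusted p under 0.05, 47 of the 59 members (79.7%) and 1126 of all genes (9.85%) were lower in the MI mice. After rescaling to TPM, which sums to the same total in every mouse, that count was 19 members against 4.90% of all genes, and the median member was at -0.33. With FPKM as deposited, the count of members was 16 without MI replicate 1, 17 without MI replicate 3 and 19, 24, 26 and 34 without sham replicates 1, 2, 3 and 4. Over all genes, those under that p in either direction numbered 4496 with all 7 mice. They numbered 1612 without MI replicate 1, 1487 without MI replicate 3 and 2702 to 2738 without 1 sham mouse. Of the 59 genes, 49 lay in the lowest 10% of all genes ordered by log2 difference. The size depended on the scaling between mice, since the median gene was at 0.42 after rescaling to TPM and at 0.02 after scaling by the median log-ratio. Relative to the median gene, the median member was at -0.73 as deposited and at -0.79 to -0.66 under the 4 other scalings tried.

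The 3 MI mice differed among themselves. The median member stood at 54.8% of the sham mean in MI replicate 1, at 65.4% in MI replicate 3 and at 92.8% in MI replicate 2, against 93.4% to 106% in the single sham mice. MI replicate 1 was below every sham mouse in 58 of the 59 genes and MI replicate 3 in 55. Both were below every sham mouse in 55 of the 59, against 16.9% of all genes. MI replicate 2 was below every sham mouse in 25 genes (42.4%, against 30.2% of all genes), inside the sham range in 33 and above it in 1. In 25 of the 59 genes (42.4%) every MI mouse was below every sham mouse, against 9.00% of all genes. Without MI replicate 2, 54 of the 59 members (91.5%) were lower at an adjusted p under 0.05 in limma, against 14.7% of all genes, and the median log2 difference of the 59 was -0.72. The 5 that did not pass were Ndufa2, Uqcr10, Cox6c, Cox7a2 and Cox7c. MI replicate 2 was set aside because of its values in these same data, which leaves 2 MI mice. The p-values without it, here and below, therefore only describe these mice. Without MI replicate 1 the median log2 difference of the 59 was -0.35, and without MI replicate 3 it was -0.50.

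**Figure D1:**
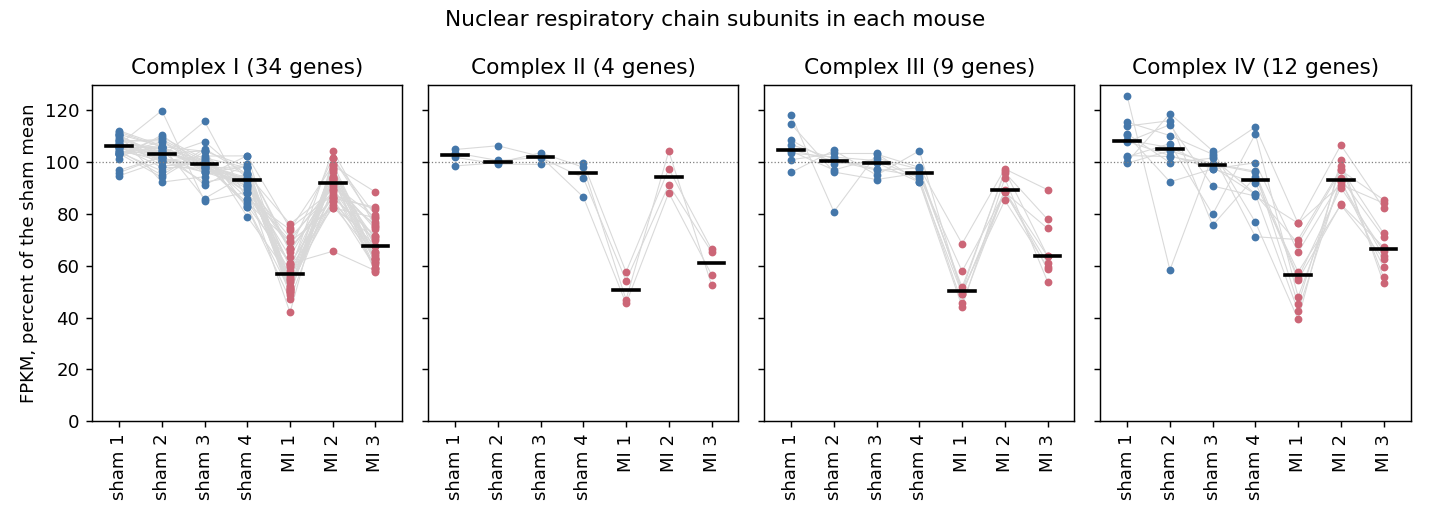
FPKM of each subunit gene in each mouse as a percent of its mean over the 4 sham mice, with 1 panel per complex. Points are genes (blue sham, red MI), thin grey lines join the values of a gene, and black bars are medians. The medians of MI replicates 1 and 3 lie below those of the sham mice in all 4 panels, while single genes such as Cox6c overlap and in MI replicate 2, 33 of the 59 genes lie inside their sham range and 25 below it.

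The members kept a similar order in the 2 low MI mice. Across the 59 genes, the percent of sham in MI replicate 1 and in MI replicate 3 had a Spearman rho of 0.66, and in MI replicates 1 and 2 it was -0.16, with a shared sham mean in both values. These are correlations across genes of 1 chain, given as a description. Differences were more negative for genes with longer coding sequences (rho -0.46). The 30 genes with at least 400 coding bases had a median log2 difference of -0.57, and the 29 shorter ones -0.45. The spread between sham mice was small, with a median coefficient of variation of 6.90% over the 59 genes.

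Complex I takes electrons from NADH. Its members were at 3.05 FPKM (Ndufb4) to 330 FPKM (Ndufb9) in the sham mean, and all 34 had negative log2 differences, from -0.66 to -0.20 with a median of -0.49 (-0.68 without MI replicate 2). At an unadjusted p under 0.05, 29 of the 34 were lower, and 33 passed the adjusted test without MI replicate 2. In 15 of the 34 the groups did not overlap.

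The core of complex I is the part conserved in bacteria, and 6 of its nuclear subunits are among the members. Ndufv1 and Ndufv2 form the tip that oxidises NADH, Ndufs1 holds iron-sulfur clusters behind it, and Ndufs3, Ndufs7 and Ndufs8 lie towards the site where coenzyme Q is reduced. Their log2 differences were close to each other, from -0.62 for Ndufs1 to -0.54 for Ndufv1. All 6 had an unadjusted p under 0.05 and all 6 passed the adjusted test without MI replicate 2. Ndufs1 was at 68.5, 63.7, 67.0 and 64.5 FPKM in the sham mice and at 32.7, 62.2 and 37.9 FPKM in MI replicates 1, 2 and 3. Every MI value of Ndufs1 was below every sham value, although MI replicate 2 lay only just outside the sham range.

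The 28 supernumerary subunits of complex I, which surround the core and stabilise it, spread more widely, with a median of -0.47. Ndufb9, a subunit of the membrane arm with the highest level in complex I, was at 366, 350, 344 and 261 FPKM in the sham mice and at 185, 322 and 223 FPKM in MI replicates 1, 2 and 3. Its log2 difference was -0.47 ± 0.22 (SE), and sham replicate 4 and MI replicate 2 overlapped the other group. Sham replicate 4 was the lowest sham mouse in 38 of the 59 genes.

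Ndufb5, another membrane arm subunit, had the lowest log2 difference of complex I, -0.66 ± 0.14 (SE), with a limma adjusted p of 0.108. It was at 33.1, 37.1, 26.3 and 27.4 FPKM in the sham mice and at 18.8, 20.3 and 18.0 FPKM in MI replicates 1, 2 and 3. This was the member whose level in MI replicate 2 was furthest below sham, at 65.6% of the sham mean, and its log2 difference without that mouse was -0.71. Ndufb5 overlaps Mrpl47 in the annotation, and whether counting used the strand is not given in the sources used here.

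Ndufa5, a subunit of the matrix arm, followed with -0.62 ± 0.19 (SE). It was at 133, 131, 115 and 125 FPKM in the sham mice and at 64.0, 113 and 74.1 FPKM in MI replicates 1, 2 and 3, so that all 3 MI mice lay below the sham range. Ndufs4, a matrix arm subunit whose loss causes mitochondrial disease, had nearly the same difference, -0.62, with 32.7 to 35.8 FPKM in the sham mice and 17.8, 29.1 and 20.2 FPKM in MI replicates 1, 2 and 3.

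At the other end on this scale stood Ndufa2 and Ndufb4. Ndufa2, a small matrix arm subunit, was at 235, 250, 231 and 196 FPKM in the sham mice and at 169, 225 and 202 FPKM in MI replicates 1, 2 and 3. Only MI replicate 1 was below the sham range, the log2 difference was -0.20 ± 0.15 (SE), and Ndufa2 was the 1 complex I gene that did not pass the adjusted test without MI replicate 2 (limma adjusted p = 0.0505). Ndufb4 was at 3.43, 3.25, 2.63 and 2.92 FPKM in the sham mice and at 2.33, 2.72 and 1.91 FPKM in MI replicates 1, 2 and 3, a log2 difference of -0.29, or -0.39 with a pseudocount of 0.1 in place of 1. Its level is uncertain, since the processed pseudogene Ndufb4c holds a near-identical stretch and was listed at 55.2 FPKM over the 7 mice. Summed with its copies, Ndufb4 was at 62.8%, 81.6% and 61.2% of the sham mean in MI replicates 1, 2 and 3.

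Complex II, succinate dehydrogenase, joins the citrate cycle to the chain and has no subunit encoded in mitochondria. All 4 of its genes had an unadjusted p under 0.05, and all 4 passed the adjusted test without MI replicate 2. Their median log2 difference was -0.59 over all mice and -0.86 without that mouse.

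Sdhb, the iron-sulfur subunit, had the lowest difference, -0.70 ± 0.23 (SE). Its levels were 276, 280, 269 and 228 FPKM in the sham mice and 120, 232 and 149 FPKM in MI replicates 1, 2 and 3. MI replicate 2 lay just above the lowest sham mouse, so the groups overlapped. Sdha, the flavoprotein that oxidises succinate, was at 261, 264, 274 and 260 FPKM in the sham mice, and at 124, 276 and 140 FPKM in MI replicates 1, 2 and 3. MI replicate 2 was the highest of the 7 mice for Sdha, the 1 member at which it stood above every sham mouse. The membrane anchors Sdhc and Sdhd had differences of -0.47 ± 0.18 and -0.54 ± 0.18 (SE), and neither overlapped between groups. Sdhd had the highest sham level of the complex, at 354, 344, 348 and 321 FPKM, against 186, 312 and 224 FPKM in MI replicates 1, 2 and 3.

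Complex III passes electrons from coenzyme Q to cytochrome c. Its 9 members had log2 differences of -0.71 to -0.23 with a median of -0.63 (-0.86 without MI replicate 2). No test of a difference between complexes was made. At an unadjusted p under 0.05, 7 of the 9 were lower, 8 passed the adjusted test without MI replicate 2, and in 6 the groups did not overlap.

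Uqcrfs1, the Rieske iron-sulfur protein, had the highest level of the complex, with 644, 591, 593 and 548 FPKM in the sham mice and 292, 530 and 348 FPKM in MI replicates 1, 2 and 3. All MI mice lay below the sham range, and the log2 difference was -0.65 ± 0.21 (SE). Cyc1, cytochrome c1, took a similar place with a difference of -0.64, at 104 to 114 FPKM in the sham mice and 50.2, 97.9 and 70.3 FPKM in MI replicates 1, 2 and 3. Both of these catalytic subunits stood beside the core protein Uqcrc1 and the small subunit Uqcrq.

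Uqcrc1 had the lowest difference of complex III, -0.71 ± 0.24 (SE), with 200, 205, 205 and 183 FPKM in the sham mice and 87.7, 186 and 107 FPKM in MI replicates 1, 2 and 3. Here MI replicate 2 was inside the sham range. Uqcrq followed with -0.65 ± 0.18 (SE), at 183, 175, 169 and 170 FPKM in the sham mice and 87.6, 149 and 104 FPKM in MI replicates 1, 2 and 3, with no overlap.

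The 2 smallest differences of complex III were those of Uqcr11 and Uqcr10, both small single-helix subunits. Uqcr11 was at 213, 178, 173 and 178 FPKM in the sham mice and at 95.8, 178 and 145 FPKM in MI replicates 1, 2 and 3, a log2 difference of -0.45 ± 0.21 (SE). Uqcr10 was at 174, 119, 152 and 144 FPKM in the sham mice and at 101, 143 and 132 FPKM in MI replicates 1, 2 and 3, a difference of -0.23 ± 0.18 (SE). The sham mice spread widely for Uqcr10, and 2 of the 3 MI mice lay inside their range.

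Complex IV, cytochrome c oxidase, hands electrons to oxygen. It held both the member with the highest level and the lowest and highest log2 differences of all 59 genes, with a median of -0.54 (-0.71 without MI replicate 2). At an unadjusted p under 0.05, 7 of the 12 were lower, and 9 passed the adjusted test without MI replicate 2. The groups did not overlap in 2 of the 12, Cox5b and Cox7b.

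Cox6a2, the heart and skeletal muscle form of subunit VIa, was the most abundant member. It was at 1392, 1459, 1390 and 1349 FPKM in the sham mice and at 632, 1378 and 777 FPKM in MI replicates 1, 2 and 3. MI replicates 1 and 3 were near 45.2% and 55.6% of the sham mean, while MI replicate 2 was inside the sham range. The log2 difference was -0.67 ± 0.27 (SE) and -0.99 ± 0.09 (SE) without MI replicate 2.

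Cox7a1, the muscle form of subunit VIIa, had the lowest log2 difference of all members, -0.73 ± 0.32 (SE). It was at 428, 507, 446 and 328 FPKM in the sham mice and at 168, 430 and 228 FPKM in MI replicates 1, 2 and 3. Again only MI replicates 1 and 3 were below the sham range, and without MI replicate 2 the difference was -1.11 ± 0.19 (SE) at a limma adjusted p of 0.00161.

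Cox4i1, the general form of subunit IV, which helps to set the response of the enzyme to ATP, was at 364, 305, 321 and 329 FPKM in the sham mice and at 215, 306 and 196 FPKM in MI replicates 1, 2 and 3. Its difference was -0.49 ± 0.18 (SE). Cox4i1, Ndufb4 and Ndufb5 were the 3 members in which MI replicate 3 was lower than MI replicate 1. MI replicate 1 was the lowest of the 7 mice in 55 of the 59 genes, and MI replicate 3 in 3.

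Cox6c and Cox7c were at the upper end. Cox6c was at 62.6, 29.1, 51.1 and 56.6 FPKM in the sham mice, where sham replicate 2 was the lowest of all 7 mice, and at 38.1, 53.1 and 41.1 FPKM in MI replicates 1, 2 and 3. Its log2 difference was -0.13 ± 0.27 (SE), and it was 0.06 after rescaling to TPM, the 1 sign among the 59 that turned under another scaling. Cox7c was at 15.3, 16.3, 12.9 and 12.4 FPKM in the sham mice and at 10.9, 13.0 and 12.0 FPKM in MI replicates 1, 2 and 3, a difference of -0.23 ± 0.13 (SE).

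**Figure D2:**
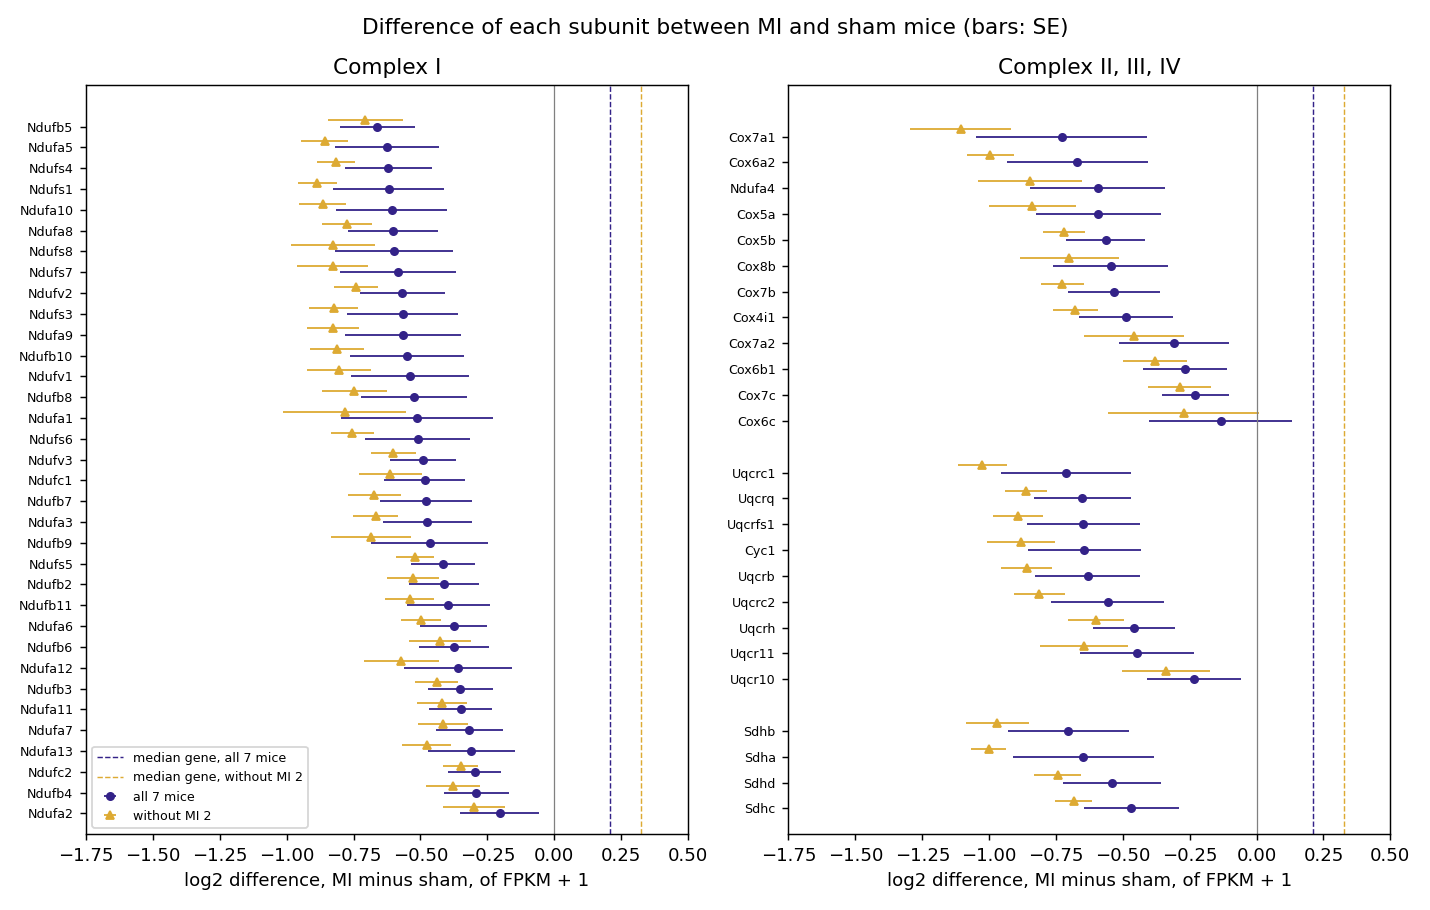
Log2 difference of FPKM + 1 between MI and sham mice for each of the 59 genes, ordered within complexes, with SE bars. Blue circles use all 7 mice and yellow triangles leave out MI replicate 2, and the dashed lines mark the median gene at 0.21 and 0.33. All circles lie left of 0, and all triangles lie further left than the circle of the same gene.

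Reads of some members could not be assigned with certainty. Of the 59 genes, 13 share a stretch of at least 100 bases at 95% identity or more with another gene, mostly processed pseudogenes. For Cox7c, whose own level was 14.2 FPKM in the sham mean, the pseudogene Gm12338 was listed at 1289, 1270, 1177 and 1151 FPKM in the sham mice and at 725, 1137 and 839 FPKM in MI replicates 1, 2 and 3. Summed over Cox7c and its 3 copies, the fragments relative to depth were at 61.0%, 93.6% and 70.6% of the sham mean in MI replicates 1, 2 and 3, where Cox7c alone was at 76.4%, 91.3% and 84.2%. For Cox5b the listed gene Gm11273 was at 403 FPKM in the sham mean and Cox5b itself at 91.3 FPKM. Both were low in MI replicates 1 and 3, and the sum of the pair was at 57.0%, 84.8% and 62.0% of the sham mean in MI replicates 1, 2 and 3.

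The same held in smaller measure for other members. Gm15920, which resembles Ndufa12 (a small accessory subunit of complex I), was at 163 FPKM in the sham mean, while Ndufa12 was at 35.7 FPKM. BC002163, which resembles Ndufs5, was at 153 FPKM against 59.5 FPKM for Ndufs5 itself. With their copies, Ndufa12 stood at 57.3%, 105% and 70.6% of the sham mean in MI replicates 1, 2 and 3, and Ndufs5 at 66.2%, 90.0% and 73.8%. For these genes the level is uncertain, and the direction between MI replicates 1 and 3 and the sham mice was the same for the gene alone and for the sum.

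For 3 of the 5 isoform pairs compared, the partner that is not a member was higher in MI replicates 1 and 3, where the member was lower. Cox6a1, the general form of subunit VIa, was at 64.5, 58.1, 52.2 and 54.5 FPKM in the sham mice and at 81.0, 44.2 and 77.2 FPKM in MI replicates 1, 2 and 3. It was therefore above the sham range in MI replicates 1 and 3 and below it in MI replicate 2, with a log2 difference of 0.19 ± 0.22 (SE), or -0.07 after scaling by the median log-ratio. Cox8a, the general form of subunit VIII, was likewise above the sham range in MI replicates 1 and 3 but inside it in MI replicate 2, with 67.2 to 80.1 FPKM in the sham mice and 102, 67.6 and 106 FPKM in MI replicates 1, 2 and 3. Its muscle partner Cox8b was at 567, 578, 377 and 470 FPKM in the sham mice and at 272, 417 and 335 FPKM in MI replicates 1, 2 and 3. Without MI replicate 2, Cox6a1 and Cox8a rose by 0.46 and 0.49 on the log2 scale (limma adjusted p of 0.00310 and 0.00156). In that comparison 57.0% of all genes were called higher and the median gene was at 0.33. Over all 7 mice Cox8a was at 0.29, and at 0.03 after scaling by the median log-ratio.

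A ratio within a mouse cancels a factor that scales a whole mouse, apart from the pseudocount of 1, but not quantile normalization. The log2 ratio of Cox6a2 to Cox6a1 was 4.41, 4.63, 4.71 and 4.61 in the sham mice and 2.95, 4.93 and 3.31 in MI replicates 1, 2 and 3. Put as shares, Cox6a2 made up 95.6% to 96.4% of the summed FPKM of the pair in the sham mice, 88.6% and 91.0% in MI replicates 1 and 3 and 96.9% in MI replicate 2. The mean ratio was 4.59 ± 0.13 (SD, n = 4) in sham and 3.73 ± 1.06 (SD, n = 3) in MI, an exact two-sided permutation p of 0.229. The difference in means was -0.86. It was -1.46 without MI replicate 2, -0.47 without MI replicate 1 and -0.48 after quantile normalization. The smallest p that 3 against 4 mice allow is 0.0286 in this exact test.

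The lowest exact permutation p of the 5 pairs, 0.0571, was that of Cox8b to Cox8a, whose log2 ratio was 2.81, 2.88, 2.40 and 2.79 in the sham mice and 1.41, 2.61 and 1.65 in MI replicates 1, 2 and 3. MI replicate 2 lay between the sham values, so the groups overlapped. The difference was -0.83 with an adjusted exact permutation p of 0.238 over the 5 pairs. It was -1.19 without MI replicate 2 and -0.59 without MI replicate 1. None of the 5 pairs had an exact p under 0.05.

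The ratio of Ndufa4 to Ndufa4l2 was low in the same 2 mice. Ndufa4, first counted to complex I and now known to bind complex IV, was at 125, 112, 114 and 98.5 FPKM in the sham mice and at 47.7, 105 and 79.8 FPKM in MI replicates 1, 2 and 3. Ndufa4l2, a related gene known to be induced by low oxygen, was at 8.80, 7.85, 8.30 and 7.37 FPKM in the sham mice and at 13.7, 7.29 and 11.9 FPKM in MI replicates 1, 2 and 3. The log2 ratio was 3.57 to 3.68 in the sham mice and 1.73, 3.68 and 2.64 in MI replicates 1, 2 and 3 (exact permutation p = 0.143, adjusted 0.238). The difference was -0.95, with -1.45 without MI replicate 2 and -0.48 without MI replicate 1.

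Cox7a1 to Cox7a2 and Cox4i1 to Cox4i2 differed less. The log2 ratio of Cox7a1 to Cox7a2, the general form of subunit VIIa, was 1.51 to 1.82 in the sham mice and 0.88, 1.76 and 1.27 in MI replicates 1, 2 and 3. Unlike Cox6a1 and Cox8a, Cox7a2 itself was lower in MI replicates 1 and 3, at 70.1% and 72.5% of the sham mean. Cox4i2, a form of subunit IV known from lung and low oxygen, was at 5.57 to 7.44 FPKM in the sham mice and at 5.96, 4.48 and 5.10 FPKM in MI replicates 1, 2 and 3. The log2 ratio of Cox4i1 to Cox4i2 was 5.44 to 5.62 in the sham mice and 4.96, 5.81 and 5.01 in MI replicates 1, 2 and 3 (exact permutation p = 0.314, adjusted 0.314).

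**Figure D3:**
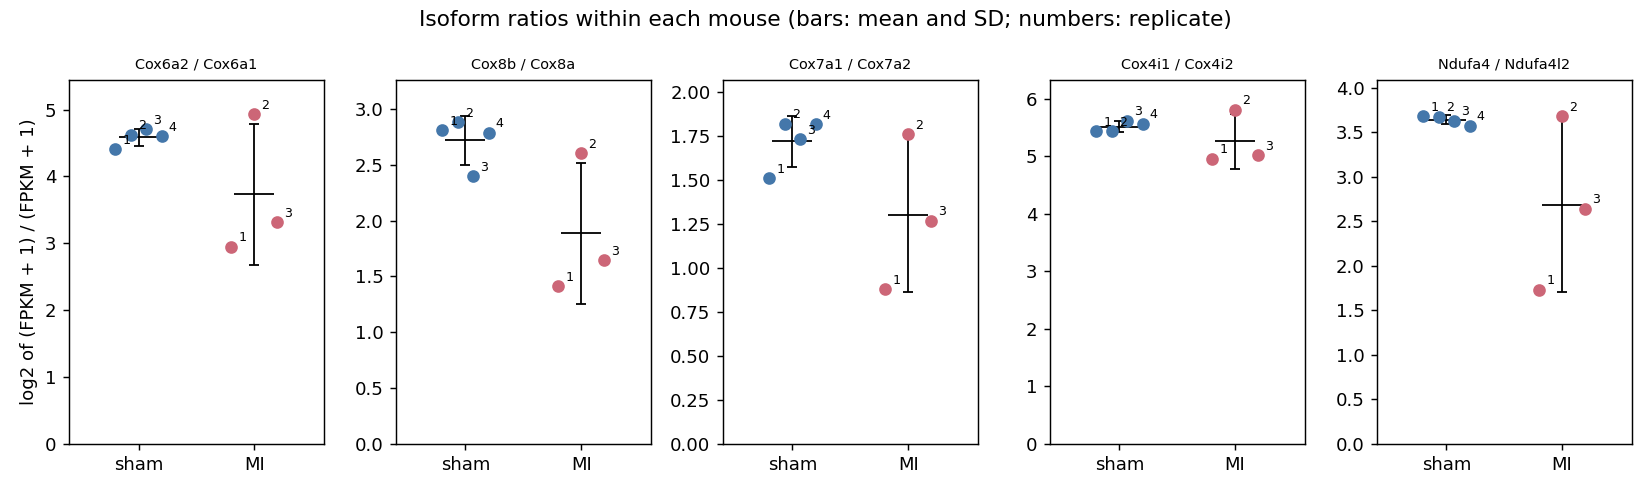
Log2 ratio within each mouse of 5 isoform pairs, from FPKM + 1, with the mean and SD of each group as black bars and replicate numbers beside the points. MI replicates 1 and 3 lie below all sham mice in all 5 panels, while MI replicate 2 lies among or above them.

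Of the other nuclear subunits and isoforms, Cox7a2l had a difference of -0.35. Cox6b2, Cox7b2 and Cox8c, forms known from testis, were below 1 FPKM in every mouse and were not tested.

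The 13 subunits encoded in mitochondrial DNA followed the nuclear members closely in 2 of the MI mice. Their median was 53.1% of the sham mean in MI replicate 1 and 56.7% in MI replicate 3, but 102% in MI replicate 2, where the nuclear members had a median of 92.8%. All 13 had negative log2 differences, from -0.79 for mt-Nd1 (complex I) to -0.51, and all 13 passed the adjusted test without MI replicate 2, where their median was -0.88. After quantile normalization, which sets values by their rank, 7 of the 13 were negative and their median was -0.01. Only 2 had an unadjusted p under 0.05 over all 7 mice. The most abundant, mt-Co1 (the catalytic subunit of complex IV), was at 63145 to 65094 FPKM in the sham mice and at 32448, 68959 and 38058 FPKM in MI replicates 1, 2 and 3.

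The nuclear subunits of ATP synthase had log2 differences from -0.72 to 0.37, a wider range than that of the 59 members. Of 16 tested, 15 had negative log2 differences (13 after rescaling to TPM) with a median of -0.45. At an unadjusted p under 0.05, 9 were lower, and 12 passed the adjusted test as lower without MI replicate 2. Atp5a1, the alpha subunit of the catalytic head, was at 691 to 721 FPKM in the sham mice and at 353, 716 and 436 FPKM in MI replicates 1, 2 and 3. Atp5g1, which encodes the rotating c ring, had the lowest difference at -0.72. Atpif1, the inhibitor that stops the enzyme from running backwards, was the exception at 0.37, and at 0.58 without MI replicate 2, where it rose with a limma adjusted p of 0.00020 among the 57.0% of all genes called higher. Atpif1 was at 0.12 after scaling by the median log-ratio and at 0.14 after quantile normalization. The median of the 16 genes was -0.62 without MI replicate 2.

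The genes that assemble the complexes and are not part of them lay nearer to 0 than the subunits on the log2(FPKM + 1) scale. That scale understates changes of low genes. Median log2 differences were -0.26 for 14 assembly factors of complex I, -0.24 for 10 of complexes II and III and -0.24 for 20 of complex IV, with 8, 4 and 9 of them lower at an unadjusted p under 0.05. Every MI mouse was below every sham mouse in 11 of the 14, 4 of the 10 and 10 of the 20. That held for 42.4% of the 59 members and 9.00% of all genes. In 1 of the 20 every MI mouse was above. Their medians in MI replicate 1 were 75.8%, 76.2% and 84.9% of the sham mean. In MI replicate 2 they were 88.0%, 86.8% and 88.1%, and in MI replicate 3 82.9%, 79.3% and 85.7%. Without MI replicate 2 the median log2 differences were -0.30, -0.30 and -0.20. They were -0.08, -0.10 and -0.05 after rescaling to TPM and -0.48, -0.45 and -0.46 after scaling by the median log-ratio. Their levels were also lower, with sums of 118 to 133 FPKM in the sham mice for the complex I list. The lowest was Taco1, an activator of mt-Co1 translation, at -0.87, with 36.9 to 41.3 FPKM in the sham mice and 16.8, 28.8 and 19.2 FPKM in MI replicates 1, 2 and 3. Cox19, a complex IV assembly factor, was at the other end with 0.30 (0.08 after scaling by the median log-ratio and 0.03 after quantile normalization), and 4.85, 5.74, 4.29 and 3.99 FPKM in the sham mice against 6.59, 4.41 and 7.35 FPKM in MI replicates 1, 2 and 3. No test of the difference between subunits and assembly factors was made.

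Cytochrome c, which carries electrons between complexes III and IV, and the genes of coenzyme Q synthesis stood nearer to the subunits. Of these 14 genes 13 had negative differences with a median of -0.41 (-0.62 without MI replicate 2), and 8 were lower at an unadjusted p under 0.05. Coq9, needed for coenzyme Q synthesis and the most abundant of the list, was at 85.2 to 91.5 FPKM in the sham mice and at 40.0, 72.1 and 45.3 FPKM in MI replicates 1, 2 and 3, a log2 difference of -0.80. Coq8b, which passed the filter only with the MI mice, had the highest at 0.57 (0.36 after quantile normalization), at 0.76 to 1.10 FPKM in the sham mice and 2.19, 1.06 and 2.28 FPKM in MI replicates 1, 2 and 3.

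Among 13 tested regulators of respiratory genes, 10 had negative log2 differences, with a median of -0.22 (-0.33 without MI replicate 2 and -0.49 to -0.05 under the 4 other scalings), and 5 were lower at an unadjusted p under 0.05. Ppara, a receptor that drives fatty acid oxidation genes, had the lowest at -0.69, with 5.77 to 7.47 FPKM in the sham mice and 2.69, 5.96 and 2.81 FPKM in MI replicates 1, 2 and 3. Esrra, the receptor ERR alpha and the most abundant of the list, had -0.35, with 19.1 to 21.0 FPKM in the sham mice and 12.9, 17.3 and 15.9 FPKM in MI replicates 1, 2 and 3. Pprc1, a coactivator related to PGC-1 alpha, had the highest at 0.38 (0.11 after quantile normalization). Nrf1, whose letters were searched above, was below 1 FPKM in every mouse and was not tested.

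**Figure D4:**
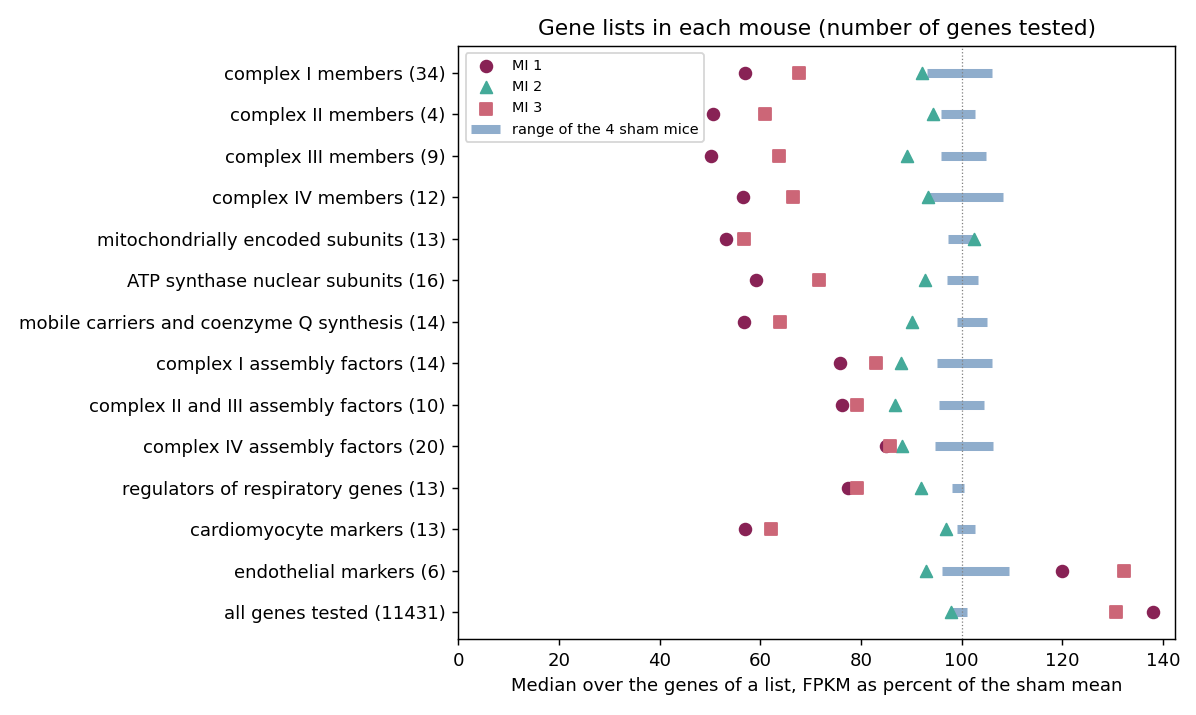
Median over the genes of each list of FPKM as a percent of the sham mean, in each MI mouse (circle, triangle and square for MI replicates 1, 2 and 3), with the range of the 4 sham mice as a blue bar. MI replicates 1 and 3 lie between 50.3% and 67.6% for the 4 complexes and above 100% for all genes tested.

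Cell type markers moved with these results. Of 13 cardiomyocyte markers 12 had negative log2 differences, with a median of -0.52, the same as that of the 59 subunit genes, and -0.74 without MI replicate 2. After quantile normalization the median was -0.40 for these markers and -0.69 for the 59 genes. Their medians were 57.0%, 96.9% and 62.2% of the sham mean in MI replicates 1, 2 and 3, and their summed level was 17253 to 18587 FPKM in the sham mice and 11874 to 17068 FPKM in the MI mice. Within that list Mybpc3, a protein of the thick filament, stood at 0.08 (-0.18 to 0.42 under the other scalings) and Tnni3, cardiac troponin I, at -0.93. In bulk tissue, fewer cardiomyocytes and less RNA per cardiomyocyte cannot be told apart.

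Fibroblast, macrophage and adipocyte markers went the other way in the 2 low mice, while endothelial, fast skeletal muscle and brown fat markers were mixed. All 8 fibroblast markers had positive differences, and their summed level was 122 to 145 FPKM in the sham mice and 2492, 232 and 1923 FPKM in MI replicates 1, 2 and 3. All 8 macrophage markers did too, although Fcgr1 passed the filter only through the MI mice. Their summed level was 196 to 249 FPKM in the sham mice and 1319, 237 and 1134 FPKM in MI replicates 1, 2 and 3. The 6 endothelial markers summed to 124 to 144 FPKM in the sham mice and to 116 to 164 FPKM in the MI mice. Their median log2 difference was 0.18, and -0.06 with 4 of the 6 negative after scaling by the median log-ratio. Kdr was below the sham range in all 3 MI mice, at 90.4%, 84.4% and 83.8% of the sham mean in MI replicates 1, 2 and 3. Adipocyte markers were higher in MI replicates 1 and 3. Adipoq was at 0 to 0.14 FPKM in the sham mice and at 8.32, 0 and 26.8 FPKM in MI replicates 1, 2 and 3. Of the 8 fast skeletal muscle markers Myh4 was at 0 in every mouse, and Ckm, also abundant in heart, was the only 1 that passed the filter. Ckm was at 39.2%, 94.7% and 52.4% of the sham mean in MI replicates 1, 2 and 3. Tnnt3 of that list was at 0.14 to 0.21 FPKM in the sham mice and at 1.88, 0.22 and 2.54 FPKM in MI replicates 1, 2 and 3. Of the 5 brown fat markers, Ucp1 was at or under 0.08 FPKM in every mouse and Cidea at 17.3 to 22.9 FPKM. Dio2 was at 0.14 to 0.24 FPKM in the sham mice and at 2.42, 0.22 and 3.29 FPKM in MI replicates 1, 2 and 3. Ppara, also among the regulators above, was at 41.5%, 91.8% and 43.3% of the sham mean in MI replicates 1, 2 and 3. The part of these cell types in the levels of the subunit genes was not tested.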

How the data were processed

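The authors deposited FPKM values for 56980 mouse genes in 7 libraries of myocardial total RNA, 4 sham and 3 MI, and all value columns were used (0 left unused). The submitters' processing notes name mm10, CASAVA 1.8, HISAT2, SAMtools 1.3.1 and edgeR. The annotation, the counter and its strand setting are not given in the sources used here. The length behind the deposited FPKM equalled the GENCODE M21 exon length for 10 of the 59 members, so levels of different genes rest on lengths of another gene model set. Those lengths do not enter a comparison between mice.

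Groups were taken from the labels. Identifiers were joined to GENCODE M21 (91.5% matched). FPKM steps gave whole fragments for 30501 of 30504 genes above 0 (tolerance 0.05), used for depth, shares of fragments and sums with copies, and in no test. The 11431 genes with at least 1 FPKM in at least 3 mice were tested on log2(FPKM + 1) in R 4.3.3 by the moderated fit of limma 3.58.1 with an intensity trend, as MI minus sham, with Benjamini-Hochberg adjustment over all of them, and the fit was tested on simulated data. The scale understates changes of low genes. Isoform ratios were tested by two-sided exact permutation over 35 assignments, adjusted over 5 pairs. Near-identical genes were found with blastn at 95% identity over 100 bases. Python 3.11.15, pandas 2.3.3 and SciPy 1.17.1 were used. Depth limits low genes: counting error is included in the SD over mice.

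Every member may be named. Per complex, the gene with the highest sham mean, the 2 lowest and 2 highest log2 differences and the genes of isoform pairs are given in full, and for other lists up to 3 genes. A few further genes (such as Ndufs1, Ndufs4, Cyc1, Myh6 and Ckm) are given for their known role. Ppara is on both the regulator list and the brown fat list. The members and lists were chosen with earlier results of these data known. Alternatives were a pseudocount of 0.1, no filter, 4 other scalings (TPM, median log-ratio, quantile, without mitochondrially encoded genes), sample weights, a replicate block and leaving out each mouse. Replicate numbers were not taken as pairs: same-numbered mice had correlations of deviations from the group means of 0.07, -0.02 and -0.08.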

Additional observations from a re-analysis of the deposited data

Results flagged for a closer look

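In 2 of 64 sets of 4 sham values, 1 mouse lay far from the other 3, where chance would give about 3.2. For Ndufa6, a complex I subunit, sham replicate 1 was at 53.1 FPKM and the others at 49.0 to 49.3 FPKM, a gap of 0.925 of the range. For Uqcr11 of complex III, sham replicate 1 was at 213 FPKM and the others at 173 to 178 FPKM, a gap of 0.865 of the range. The log2 differences between MI and sham mice were -0.38 and -0.45 with that mouse.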

How the results depend on the processing

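Of the 59 members, none was called lower by limma under a pseudocount of 0.1, no filter, the 4 other scalings or the replicate block, and their signs were negative under each of these except for Cox6c, which was 0.063 after rescaling to TPM. At an unadjusted p under 0.05 the count of members lower was 19 after rescaling to TPM and 45 to 51 under the other pseudocount, filter and scalings, against 47 as reported. Genes under that p in either direction numbered 4702 after rescaling to TPM and 4304 to 7730 under the others, against 4496 as reported. The count of genes called lower over all genes (1 as reported) was 0 with TPM, 5 with median log-ratio scaling, 5 with quantile normalization and 3 without mitochondrially encoded genes. The count called higher (2 as reported) was 5 with a pseudocount of 0.1, 20 with no filter, 10 with median log-ratio scaling, 10 with quantile normalization and 8 without mitochondrially encoded genes. The medians of complexes I, II, III and IV were -0.30, -0.40, -0.44 and -0.34 with TPM, and that of complex I was -0.74 with median log-ratio scaling. Sample weights called 2316 genes lower, 7636 higher and 57 members lower. Their fit gave MI replicate 3 a weight of 437 and all others at most 1.32, so it rests on that mouse. The replicate block, which leaves out sham replicate 4, called 0 genes lower and 0 higher, with 20 members lower at an unadjusted p under 0.05 and 2332 genes in either direction. The numbers mark no shared origin in the labels. Leaving out 1 mouse at a time gave 0 to 1683 genes lower, 0 to 6512 higher, 0 to 54 members lower and 25 to 55 members with no overlap. The upper values are those without MI replicate 2, and without sham replicate 4 there were 42 members with no overlap. Over all genes, the share with no overlap was 16.9% and 11.1% without these mice and 9.94% to 10.4% without each of the others. At an unadjusted p under 0.05, leaving out 1 mouse gave 16 (without MI replicate 1) to 57 (without MI replicate 2) members lower. Genes under that p in either direction ran from 1487 (without MI replicate 3) to 8492 (without MI replicate 2). The cause of these differences was not tested. With 3 MI mice, of which 1 stood near the sham mice, the adjusted test limits what can be called.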
